A study of Homo sapiens with 9 samples.

Results

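The 5 genes described here, PGM1, UGP2, GYS1, GBE1 and PPP1R3C, make glycogen from glucose phosphate. HIF-1α binding at them was read from chromatin immunoprecipitation with sequencing (ChIP-seq) of SK-N-BE(2), an established human neuroblastoma cell line. Cells at 1% oxygen (hypoxia, 3 libraries) were set against cells at 21% oxygen (normoxia, 3 libraries), all kept for 48 hours and precipitated with an antibody to HIF-1α. Input chromatin came from 3 libraries of cells at 21% oxygen, so the hypoxia libraries had no input of their own oxygen level. Both groups are the same unmodified line as far as the labels say, and nothing says whether libraries came from separate cultures, so the spread between them may be technical. A gene's members were all peak summits inside a window of 40 to 310 kb around it on hg19. This gave 27 of 16463 summits in the 6 deposited peak lists, and 6 of 9420 regions formed by joining overlapping intervals.

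Glycogen is a branched glucose store that cells can draw on when glucose or oxygen runs short. PGM1 (phosphoglucomutase) converts glucose 6-phosphate to glucose 1-phosphate, UGP2 makes UDP-glucose from it, GYS1 (the glycogen synthase of muscle and most other tissues) adds that glucose to the chain, and GBE1 puts in the branches. PPP1R3C, also called PTG, brings protein phosphatase 1 to the glycogen particle, where the phosphatase activates the synthase. HIF-1, the oxygen-regulated factor of which HIF-1α is a subunit, binds a core written ACGTG or GCGTG, and several of these genes are known as hypoxia-induced in other cell types.

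Binding was called in hypoxic cells in 4 of the 5 gene windows. PPP1R3C and GBE1 had tall peaks in all 3 hypoxia libraries. PGM1 and the GYS1 window had peaks of lower fold than those, and the UGP2 window had no call in any library. In normoxic cells a single call was made at these genes, a small peak at PPP1R3C in normoxia 3. Of the 6 regions, 5 were called in at least 2 hypoxia lists and 4 in all 3; over all 9420 regions these shares were 43.9% and 11.5%. A region called in at least 2 hypoxia lists lay in 4 of the 5 windows. Over chromosomes 1 to 22 and X cut into tiles as long as the window, such a region lay in 4.68% of tiles for PPP1R3C (40 kb), 7.71% for GYS1 (70 kb), 9.55% for UGP2 (90 kb), 11.2% for PGM1 (110 kb) and 25.5% for GBE1 (310 kb). Tiles include stretches without genes, so these shares describe the genome and not windows around genes.

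List length and read extension differed between the libraries and touch every value that follows. The hypoxia lists held 1408, 5833 and 7619 intervals and the normoxia lists 75, 32 and 109, at depths of 6.62, 5.94 and 5.31 background reads per kb in hypoxia and 6.69, 6.02 and 6.26 in normoxia. Reads had been extended, as the shortest intervals show, to 48, 155 and 167 bp in hypoxia 1, 2 and 3 and to 46, 47 and 47 bp in normoxia 1, 2 and 3. The fold is the authors' measure of how far reads exceed the background around a summit, as a ratio with 1 added to reads and to background. The added 1 keeps it below the plain ratio of reads to background, most where the background is low. Genome-wide background was lower in the lists of short extension. The fold is thus not on 1 scale between lists of different extension, so its place within a list is given beside it.

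**Figure D1:**
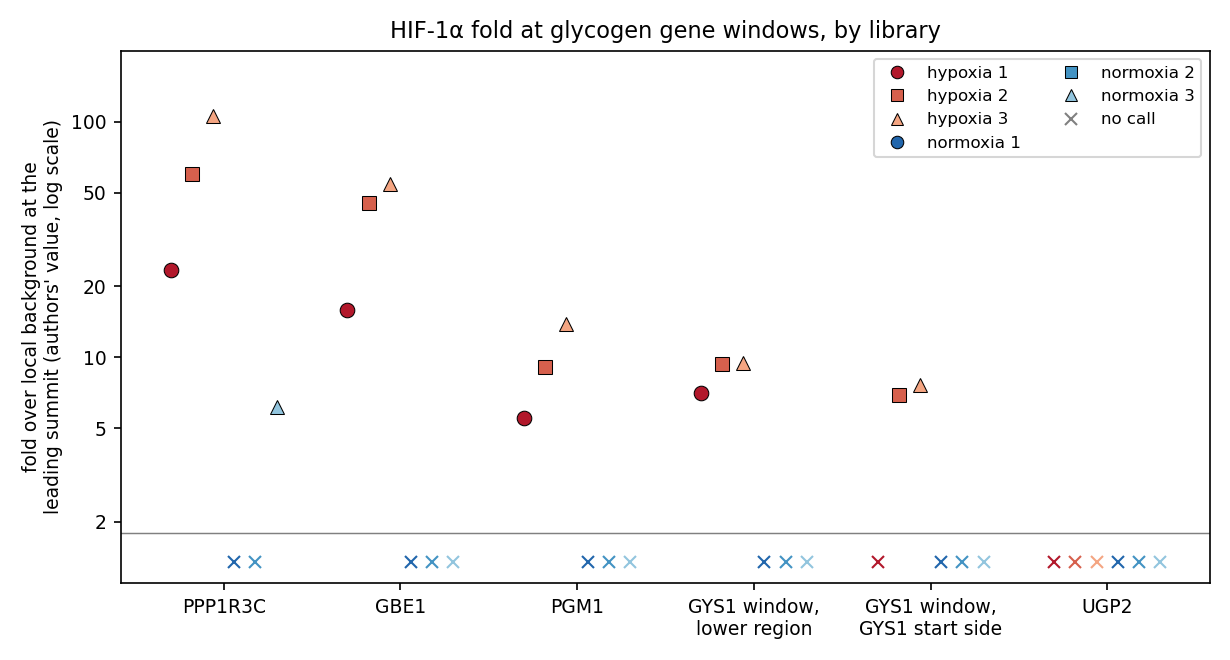
Authors' fold over local background (log axis) at the leading summit of each glycogen gene region, 1 point per library, with crosses under the line for lists without a call. PPP1R3C and GBE1 stand above the other sites in each hypoxia library, the only normoxia point is PPP1R3C in normoxia 3 at 6.18, and UGP2 has crosses in all 6 columns.

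PPP1R3C carried the strongest site of the group. Its region, chr10:93392638-93393371 on hg19, had folds of 23.6, 60.0 and 106 in hypoxia 1, 2 and 3, against 6.18 in normoxia 3 and no call in normoxia 1 and normoxia 2. Of the hypoxia lists only hypoxia 1, with reads extended to 48 bp, is near the 47 bp of normoxia 3. The fold of hypoxia 1 was the higher of those 2. The fold ranked 19 of 1408, 45 of 5833 and 6 of 7619 in the 3 hypoxia lists and 71 of 109 in normoxia 3. Its percentile in the hypoxia lists was 99.3% ± 0.636 (SD, n = 3). Behind the leading summits lay 34, 156 and 198 reads in hypoxia 1, 2 and 3, and 7 reads in normoxia 3. The longer extension of hypoxia 2 and hypoxia 3 places more reads over a summit, so their counts are not comparable with that of normoxia 3.

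The PPP1R3C intervals of the hypoxia libraries overlapped, and their summits coincided in part. The summits of hypoxia 2 and hypoxia 3 lay 3 bp apart, at 93393058 and 93393061. The leading summit of hypoxia 1, at 93393151, lay 93 and 90 bp from those of hypoxia 2 and hypoxia 3. Another of its 4 summits lay at 93393062. Intervals were 577, 734 and 714 bp long in hypoxia 1, 2 and 3, against 47 bp in normoxia 3, the shortest length in that list. The normoxia 3 summit, at 93392974, lay within the region and 16 bp from a lesser summit of hypoxia 1.

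The promoter of PPP1R3C held the HIF core several times. The windows printed next run from 250 bases before to 50 bases after the first transcript start, from RefSeq on GRCh38.p14; they are shown for the genes with the strongest sites and for the gene without a call. Capitals mark ACGTG or GCGTG on either strand, which overlap in the palindrome CACGTG.
PPP1R3C: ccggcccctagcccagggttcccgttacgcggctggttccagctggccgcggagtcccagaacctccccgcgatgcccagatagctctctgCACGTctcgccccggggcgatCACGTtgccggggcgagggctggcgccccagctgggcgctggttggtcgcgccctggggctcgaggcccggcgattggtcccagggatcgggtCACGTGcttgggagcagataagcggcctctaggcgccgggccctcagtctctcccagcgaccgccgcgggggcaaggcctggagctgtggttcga
GBE1: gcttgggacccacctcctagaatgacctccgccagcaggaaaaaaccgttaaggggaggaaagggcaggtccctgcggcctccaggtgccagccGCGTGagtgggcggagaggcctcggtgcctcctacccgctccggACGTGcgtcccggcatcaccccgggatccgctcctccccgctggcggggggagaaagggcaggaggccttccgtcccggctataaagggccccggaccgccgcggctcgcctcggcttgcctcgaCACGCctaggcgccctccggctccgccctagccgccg
UGP2: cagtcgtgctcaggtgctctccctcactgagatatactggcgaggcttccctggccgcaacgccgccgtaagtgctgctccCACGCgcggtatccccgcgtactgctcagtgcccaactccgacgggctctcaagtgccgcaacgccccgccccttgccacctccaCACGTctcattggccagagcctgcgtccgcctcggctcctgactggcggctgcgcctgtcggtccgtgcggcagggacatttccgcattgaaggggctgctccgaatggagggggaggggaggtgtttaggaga

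In these 300 bases PPP1R3C had 4 matches to ACGTG over both strands, starting 159, 138, 45 and 44 bases before the start. The last pair is the palindrome CACGTG, which 7.26% of the 35116 promoters of the table hold. GBE1 had 1 match to ACGTG, 112 bases before the start, and 2 to GCGTG. UGP2, with no HIF-1α call, still had 1 match to ACGTG, 84 bases before its first start, and 1 to GCGTG. A match to ACGTG is found in 21.4% of all promoters, 1 to GCGTG in 36.5% and either in 48.4%. GYS1 had 2 matches to GCGTG and 0 to ACGTG. Of the 3 listed starts of PGM1, the second had 1 match to ACGTG and 2 to GCGTG and the others 0, and the second start of UGP2 had 1 match to GCGTG. These promoters are on another build than the peaks, and their positions were not converted, so whether a summit lies on a core was not determined here.

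GBE1 had the next strongest site and the longest one. Its region, chr3:81809952-81811114, was called in all 3 hypoxia libraries and in no normoxia library, with folds of 15.9, 45.3 and 54.1 in hypoxia 1, 2 and 3. These ranked 78 of 1408, 87 of 5833 and 68 of 7619, a mean percentile of 97.4% ± 2.53 (SD, n = 3). Leading summits had 20, 117 and 114.0 reads in hypoxia 1, 2 and 3. Intervals of 1089 bp in hypoxia 2 and 1082 bp in hypoxia 3 were longer than 99.6% of the intervals of those lists.

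The GBE1 region held more than 1 summit in every hypoxia library. In hypoxia 2 and hypoxia 3 the taller summit lay at 81810232 and 81810249 and a second one, with 65 and 73 reads, at 81810918 and 81810884. In hypoxia 1 the calls were split into 2 intervals 247 bp apart, with 5 summits in all, and the leading one lay at the second place, 81810874. The first and last summits were 755, 686 and 635 bp apart in hypoxia 1, 2 and 3. By reads, the first place had more in all 3 libraries: at most 24 reads in hypoxia 1, with 117 and 114.0 in hypoxia 2 and hypoxia 3, against 20, 65 and 73 at the second. The second place led in hypoxia 1 by fold and p. The peak caller's local background was 1.02 times its genome-wide value there, against 5.3 times at the summit of 24 reads. Hypoxia 2 had a further summit between them, at 81810628, with 28 reads.

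**Figure D2:**
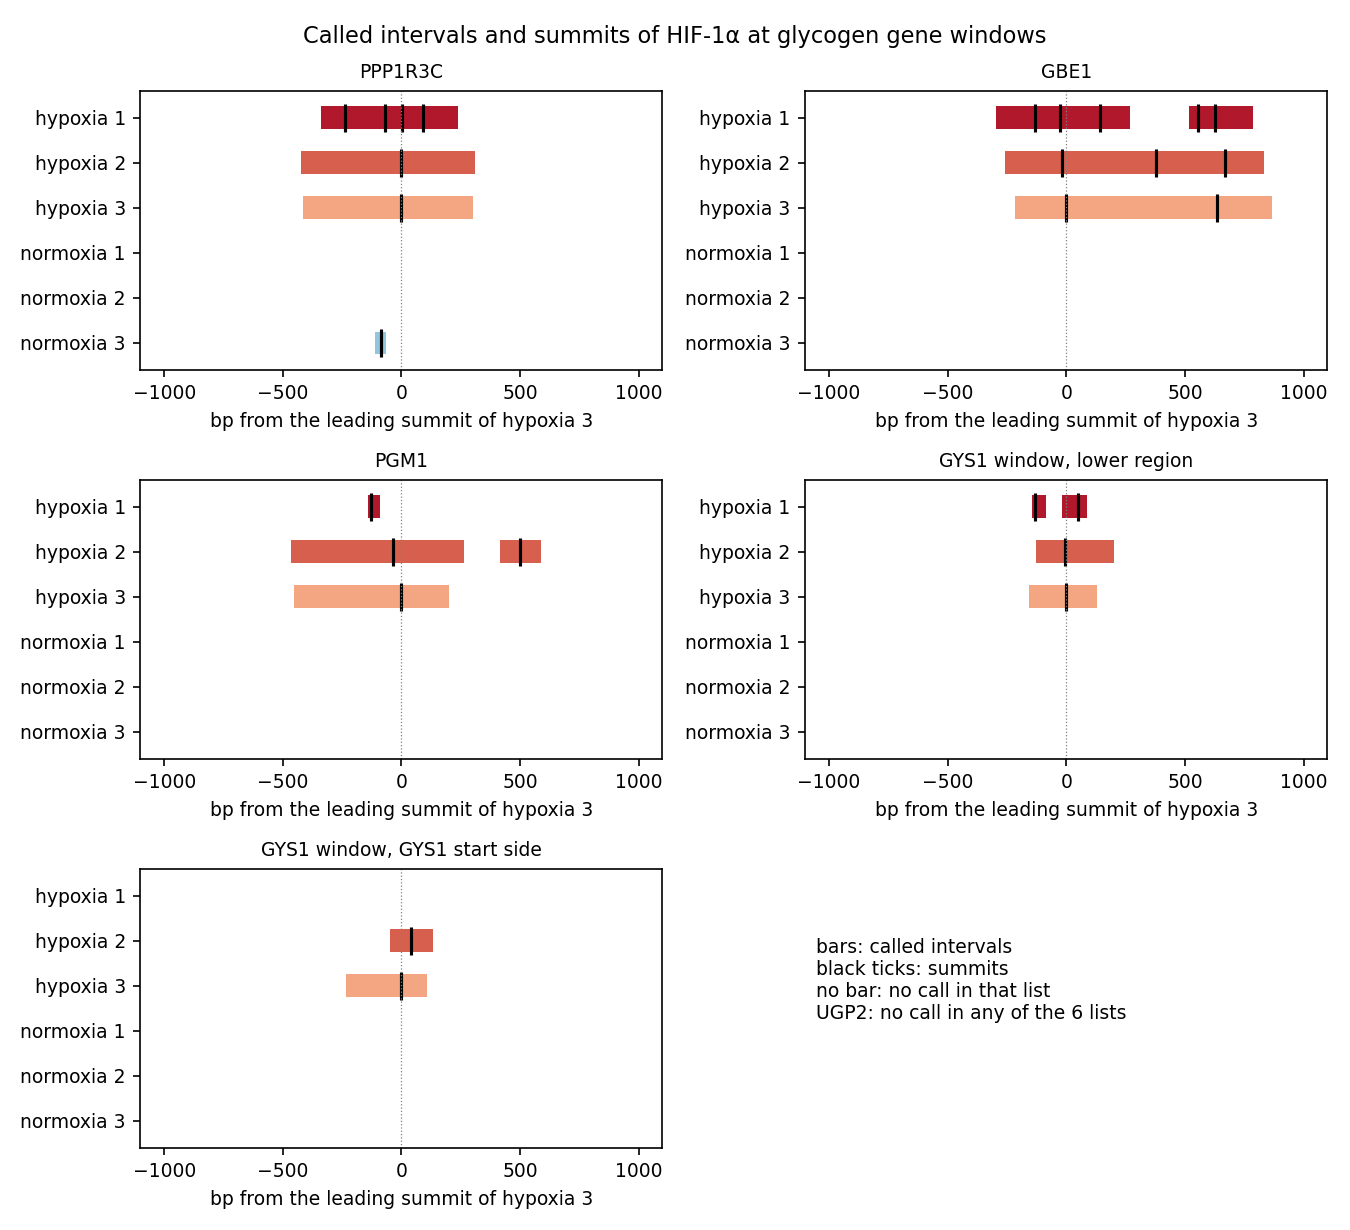
Called intervals (bars) and summits (black ticks) at each region, 1 row per library, drawn to scale as distance in bp from the leading summit of hypoxia 3. Hypoxia intervals at PPP1R3C lie around a shared summit, GBE1 has summits at both ends of its 1163 bp region, and the only normoxia bar is the 47 bp call of normoxia 3 at PPP1R3C.

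PGM1, the enzyme at the entry to the pathway, had a site of lower fold, called in all 3 hypoxia libraries. Its region chr1:64059076-64059803 had folds of 5.54, 9.14 and 13.8 in hypoxia 1, 2 and 3 and no normoxia call, on 7, 17 and 25 reads. The place in the list differed widely between libraries, with percentiles of 37.5%, 73.9% and 88.5% in hypoxia 1, 2 and 3, a mean of 66.7% ± 26.3 (SD, n = 3). In hypoxia 1 it was thus below the median interval of its list, where the interval was 48 bp long; in hypoxia 2 and hypoxia 3 it was 728 and 653 bp long. A second region, chr1:64059959-64060129, was called in hypoxia 2 alone, with a fold of 4.99 and 12 reads.

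The GYS1 window held 2 regions 27868 bp apart, and it is shared with another gene. In the RefSeq table of GRCh38.p14 the next protein-coding gene on the low-coordinate side of GYS1 is FTL, the ferritin light chain, which is on the forward strand and so starts at its own low-coordinate end, while GYS1 is on the reverse strand and starts at its high-coordinate end. The low-coordinate region, chr19:49468368-49468727, had folds of 7.06, 9.37 and 9.41 in hypoxia 1, 2 and 3 and no normoxia call, on 12, 17 and 19 reads. The region on the side of the GYS1 start, chr19:49496596-49496961, was called in hypoxia 2 and hypoxia 3, with folds of 6.93 and 7.62 on 18 and 19 reads, and in neither hypoxia 1 nor any normoxia library. Percentiles of fold were 71.84% ± 8.12 (SD, n = 3) for the low-coordinate region and 56.8% and 68.1% in hypoxia 2 and hypoxia 3 for the start side. Without an hg19 annotation it was not determined which gene either region belongs to, so calls in all 3 hypoxia libraries hold for the window and not for GYS1 itself.

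UGP2 was the exception. None of the 6 lists had a summit between 64.05 and 64.14 Mb of chromosome 2, nor within 50 kb of that window. The nearest hypoxia summits were 234 kb below it and 316 kb above it, both in hypoxia 3, with folds of 6.12 and 6.81. At the genome-wide background, 5, 7 and 6 reads were needed for the lowest p in the lists of hypoxia 1, 2 and 3, and 6 reads in each normoxia list, so a weaker signal would not have been seen at this depth. Most tiles of 90 kb lacked a replicated hypoxia region too (9.55% held one).

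Within the hypoxia libraries the order of reads at the leading summit was PPP1R3C, GBE1, and then PGM1 and the GYS1 window. PPP1R3C had 1.7, 1.33 and 1.74 times the reads of GBE1 in hypoxia 1, 2 and 3, a mean log2 ratio of 0.66 ± 0.21 (SD, n = 3). The exact 95% counting interval of that ratio was 1.04 to 1.71 in hypoxia 2 and 1.37 to 2.21 in hypoxia 3 but included 1 in hypoxia 1 (0.951 to 3.12). GBE1 had 2.86, 6.88 and 4.56 times the reads of PGM1, a mean log2 ratio of 2.16 ± 0.63 (SD, n = 3), with every interval above 1. The GBE1 count of hypoxia 1, 20 reads, is that of its second place, and those of hypoxia 2 and hypoxia 3 are of the first. At the first place hypoxia 1 had up to 24 reads, so both means with GBE1 mix places. PGM1 and the low-coordinate region of the GYS1 window differed by less than the spread between libraries, with ratios of 0.583, 1 and 1.32 and a mean log2 ratio of -0.13 ± 0.60 (SD, n = 3). These intervals cover counting error only, 3 pairs of neighbours were compared, and PCR copies of 1 molecule are not independent reads.

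**Figure D3:**
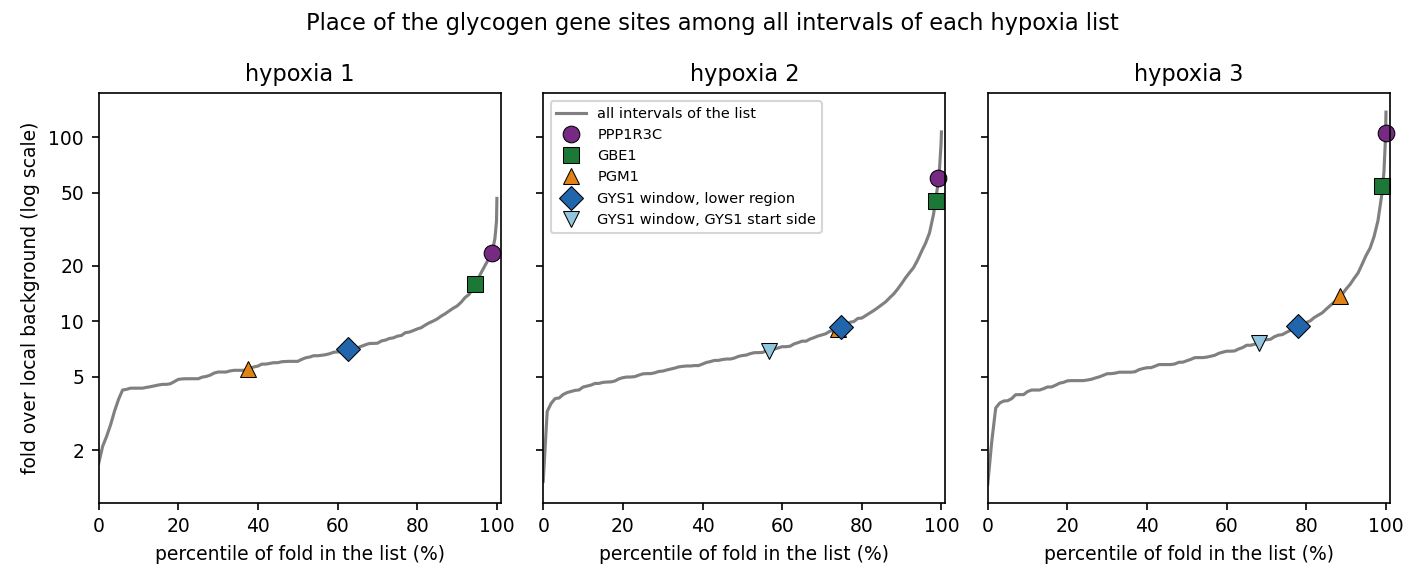
Fold (log axis) against its percentile among all intervals, 1 panel per hypoxia library, with the grey line for the whole list and markers for the glycogen gene sites. PPP1R3C and GBE1 sit at the top end of each list, while PGM1 moves along the curve, at 37.5%, 73.9% and 88.5% in hypoxia 1, 2 and 3.

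The oxygen level was compared gene by gene by the share of libraries with a call. PGM1, the GYS1 window and GBE1 were called in 3 of 3 hypoxia and 0 of 3 normoxia libraries, a difference of 100 percentage points (two-sided exact permutation p = 0.1 each, the smallest that 3 against 3 libraries allow). PPP1R3C was called in 3 of 3 hypoxia and 1 of 3 normoxia libraries, a difference of 66.7 points (exact permutation p = 0.4). Without normoxia 3, which made that call, it was 100 points by construction (exact permutation p = 0.1). Without normoxia 1 or normoxia 2 it was 50 points (exact permutation p = 0.4 each). With the start side of the GYS1 window alone, a choice made after seeing the data, the difference was 66.7 points (exact permutation p = 0.4). UGP2 was called in 0 of 3 libraries of each group (exact permutation p = 1). None of the 5 tests reached 0.05, and this design cannot.

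Replicated hypoxia binding with no normoxia summit was thus found in 3 of the 5 windows. The same was true of 4.56%, 7.5%, 9.28%, 10.9% and 24.6% of tiles of 40, 70, 90, 110 and 310 kb. A normoxia summit lay in 1 of the 5 windows, that of PPP1R3C, and 1 of the 6 regions was called in any normoxia list, as were 1.46% of all regions; 0.817% of all regions were called, like it, in all 3 hypoxia lists and in normoxia. A normoxia summit lay in 0.158%, 0.275%, 0.351%, 0.414% and 1.16% of tiles of 40, 70, 90, 110 and 310 kb. Just outside the PPP1R3C window, 18.6 kb below its edge, hypoxia 2 and hypoxia 3 had summits with folds of 9.21 and 8.48, and hypoxia 3 had 1 with a fold of 5.65 at 22.3 kb above it. No other window had a summit within 50 kb of its edges.

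A missing normoxia call carried different weight at each gene. Hypoxia 1, the hypoxia library with an extension like that of normoxia, was scaled to the depth of each normoxia library and set against the 6 reads needed there for the lowest p in the list. At GBE1 the scaled reads were 20.2, 18.18 and 18.91 at the depth of normoxia 1, 2 and 3, at least 3.03 times the need. At PPP1R3C they were 34.4 and 30.9 in normoxia 1 and normoxia 2, which made no call, so a signal as strong as in hypoxia 1 was well above the need there too. In the GYS1 window they were 12.1, 10.9 and 11.3, at least 1.82 times the need, or 1.21 times with the local background of hypoxia 1. At PGM1 they were 7.07, 6.36 and 6.62, 1.06 times the need at the lowest. If the local background of hypoxia 1 held in normoxia 2, 7 reads were needed and the ratio was 0.909. Only under that assumption would a signal equal to that of hypoxia 1 have gone uncalled. The local background of a list is not known where it has no call, and it can differ between libraries. At the PPP1R3C summits 16 bp apart it was 5.3 times the genome-wide value in hypoxia 1 and 1 times in normoxia 3. A call also needs a minimum interval length, so the need is the least that p alone requires.

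Only PPP1R3C allowed a direct ratio of reads. At the leading summits hypoxia 1 had 34 reads and normoxia 3 had 7, a depth-corrected ratio of 4.59 (exact 95% counting interval 2.00 to 12.3). These summits lay 177 bp apart, farther than the read extension of either library, so the counts come from different places in the region. At the hypoxia 1 summit closest to that of normoxia 3, 16 bp away and with 28 reads, the ratio was 3.78 (1.61 to 10.3). Both intervals lie above 1, yet they compare single libraries. For hypoxia 1 the peak caller's local background at the closest summit was 5.3 times its genome-wide value. That background, 1.69 reads, was the same at the GBE1 summit of 24 reads, so it moves in coarse steps. It need not reflect reads of hypoxia 1 itself.

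**Figure D4:**
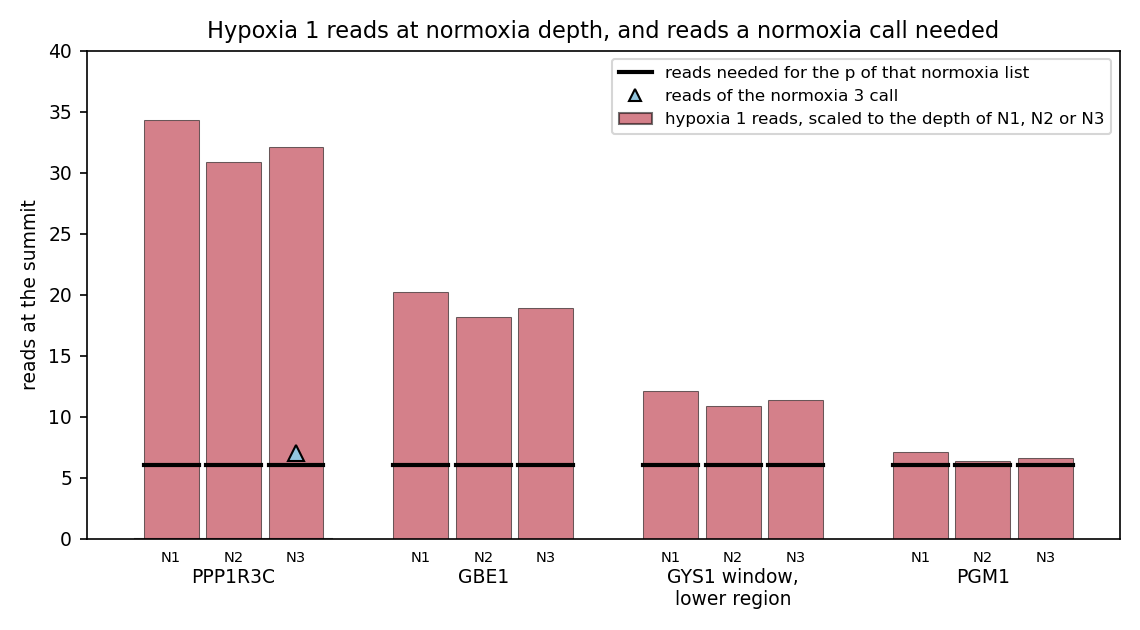
Reads at the leading summit of hypoxia 1 scaled to the depth of normoxia 1, 2 and 3 (bars, from 0), with the reads a normoxia call needed (black lines, 6 in each) and the 7 reads of the normoxia 3 call at PPP1R3C (triangle). Bars stand far above the line at PPP1R3C and GBE1 and just above it at PGM1.

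Of 25 further genes of glycogen metabolism, 8 had a replicated hypoxia site in their window. These windows were set by hand on hg19 with about 20 kb on each side; their chromosomes matched the RefSeq table, but their positions were not checked against an hg19 annotation, and a window can hold other genes. Of tiles of the same lengths, 5.71% to 26% held such a site, a mean of 10.4%. Among the 12 genes of synthesis and its control 6 windows held one, beside a mean of 9.78% of tiles of their lengths. Among the 13 of breakdown and its control 2 did, beside 10.9%. The difference was not tested. Control covers inhibitors too, with GSK3B among the 6. Genes were placed on a side by hand, PGM2 and PGM2L1 of the 6 among them, and their part in glycogen making was not checked. The counts are thus not a measure of a lean toward glycogen making. No library had a call in 13 of the 25 windows, 5 of the 12 of synthesis and 8 of the 13 of breakdown. The share of tiles without any call was not computed, so these counts have no background beside them. The count rested on hypoxia 2 and hypoxia 3, since without either it was 3.

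Of the 25 windows, 3 held a region called in all 3 hypoxia libraries, as did 1.66% to 9.37% of tiles of the same lengths, a mean of 3.29%. That of PPP1R3E, a further subunit that targets protein phosphatase 1 to glycogen, lay at chr14:23770504-23771373, with folds of 5.43, 30.70 and 42.9 in hypoxia 1, 2 and 3 and no normoxia call. That of PHKA1, a regulatory subunit of phosphorylase kinase, lay at chrX:71933404-71933707, with folds of 8.35, 14.1 and 9.61 and no normoxia call. The window of GSK3B, a kinase that inhibits glycogen synthase, held 2 such regions. At chr3:119813180-119813828 it had folds of 9.23, 8.91 and 8.01 in hypoxia 1, 2 and 3, against 5.47 and 5.31 in normoxia 1 and normoxia 3. At chr3:119607559-119608008 the folds were 6.35, 6.42 and 16.002 in hypoxia 1, 2 and 3, with no normoxia call. GSK3B was thus the only one of the 25 with a normoxia call in its window.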

How the data were processed

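Per the submitters' processing notes, reads were aligned with BWA 0.7.17 to hg19 and peaks were called with MACS2; the MACS2 version and settings and any duplicate filter are not given here. The authors deposited 1 peak list per library. The deposited fold is a ratio at the summit, with 1 added to reads and to background. The deposited −log10 p and −log10 q are the peak caller's own, and the deposited score is 10 times −log10 q cut to a whole number. Of the deposited columns, the summit offset was added to the interval start.

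The steps were run in Python 3.11.15 with scipy 1.17.1. Summits were assigned to gene windows on hg19, and positions are 1-based. Intervals of the 6 lists on chromosomes 1 to 22, X and Y were merged into regions wherever they overlapped by 1 bp or more. An interval takes the values of its summit of smallest p. Whole reads and local background were recovered from fold and p: all 16463 summits gave whole reads within 0.001 of the −log10 p, and the code was tested on simulated data. The local background is the peak caller's, and whether it was counted in the input or in the library itself is not given here. Depth is the lowest local background of a list, its genome-wide value, over its shortest interval, which stands for the read extension. At 7 to 198 reads per leading summit in hypoxia, counting error is wide at the sites with few reads.

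Shares of libraries with a call were compared by two-sided exact permutation tests. All members are named. Of other glycogen genes, those with a region in all 3 hypoxia lists are named, and PGM2 and PGM2L1 for their placing. The members and gene lists were chosen with earlier results of these data known. Alternatives covered thresholds, window placement, ranking, depth, each library left out and a replicate block.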

Additional observations from a re-analysis of the deposited data

How the results depend on the processing

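Of 125 alternative values, 110 kept their direction (and, where there is no test, their size within the spread), 14 moved and 1 reversed. The reversed one was at PGM1, where hypoxia 1 reads fell below the normoxia need if the local background of hypoxia 1 was assumed. The 60 alternatives on calls kept their direction or stayed at 0, and p was never below 0.1, so these tests say nothing of stability. Pairing libraries of the same number as a replicate block gave 100 percentage points for PGM1, the GYS1 window and GBE1, 66.7 for PPP1R3C and 0 for UGP2 (exact sign-flip permutation p from 0.25, the smallest that 3 pairs allow, to 1), equal to the main values by construction; same-numbered deviations correlated at 0.00356 to 0.0649 over 9420 regions, of which 138 had a normoxia call, and for 4 of 6 libraries the best correlation was with that of the same number. At 1 common −log10 p of 7.15, added after seeing the data, the members' calls gave the same differences. With a fold of at least 6, and with −log10 q of at least 5, PGM1 lost its hypoxia 1 call, leaving 66.7 points (exact permutation p = 0.4); that q threshold also removed the normoxia 3 call of PPP1R3C, giving 100 points (exact permutation p = 0.1). With 1 library left out, PPP1R3C ran from 50 to 100 points. The GYS1 percentile was 62.4% on the start side alone, a choice added after seeing the data.

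Hypoxia 1 reads over the normoxia need were 1.06 for PGM1, 1.82 for the GYS1 window and 3.03 for GBE1. With the local background of hypoxia 1, 7 and 9 reads were needed in normoxia 2 at PGM1 and the GYS1 window, and their values became 0.909 and 1.21. That of GBE1 stayed at 3.03. Without depth correction the values were 1.17, 2 and 3.33. With 1 normoxia library left out the main values ran from 1.06 to 1.103, 1.82 to 1.89 and 3.03 to 3.15. Windows replicated in hypoxia without a normoxia call numbered 4 without normoxia 3 and at −log10 q of at least 5, and 3 otherwise. The 8 other glycogen genes became 5 above a fold of 6 and 3 where every hypoxia list had to make the call, fewer by construction, and 3 to 8 with 1 hypoxia library left out. Shares of tiles fell when all 3 lists were needed, to 1.34% at 40 kb and 9.07% at 310 kb. UGP2 has no percentile or read ratio, since it has no call. Depth limits what the lists can show, since 6 reads were needed for a call in each normoxia list.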
